A study of Homo sapiens with 12 samples.

Results

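The genes described here encode the enzymes, sensors and transporters that make, take up and export cholesterol. They are 30 genes named from pathway knowledge and found by symbol among the 60669 gene identifiers of the count table. By role they comprised 7 genes of the mevalonate branch, 3 that lead from farnesyl units to lanosterol, 8 that turn lanosterol into cholesterol, 5 that control the sterol-sensing transcription factors, 4 for intracellular transport and esterification, and 3 for efflux and the response to oxysterols. All 30 were found. Of these, 29 passed the filter on low counts and were tested with 16393 genes in all, and ABCG1 did not pass.

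Polyadenylated RNA was sequenced from HT1080, a human fibrosarcoma cell line, in which an endogenous retroviral repeat at SP140, a gene for an immune transcriptional regulator, was targeted by CRISPR interference. All 12 libraries came from cells that carried dCas9, a Cas9 that binds DNA without cutting it, under blasticidin selection, and a guide RNA under puromycin selection. The control cells carried a guide against GFP (genotype dCas9_CRISPRi_GFP, called GFP cells below) and the others a guide labelled LTR8B.SP140, for the LTR8B repeat at SP140 (called LTR8B cells). Cells of each kind were left untreated or exposed for 4 h to interferon beta (IFNB), an antiviral cytokine, at a dose of 10 U/mL, with 2 libraries for each GFP group and 4 for each LTR8B group. All groups grew in medium with fetal bovine serum, itself a source of cholesterol. The labels name neither a repressor domain on the dCas9 nor whether a line was 1 clone, nor do they tell how the replicates were grown, so each p-value covers no more than the spread among the libraries, which may be technical.

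Total counts per library ran from 12404270 to 28801579, and levels are given as CPM, counts per 1e+06 counts after TMM scaling. SP140 was at 29.8 to 32.0 CPM in the 4 GFP libraries and at 0.515 to 1.84 CPM in the 8 LTR8B libraries. The IFNB-induced gene IFIT1 was at 7.35 to 11.9 CPM in the 6 untreated libraries and at 2303 to 3016 CPM in the 6 treated ones. Of 8 mesenchymal markers VIM was highest, at 3063 to 3953 CPM, while THY1 did not exceed 0.189 CPM. The summed level of the 6 epithelial markers was 358 to 445 CPM and came almost wholly from KRT8 and KRT18, with EPCAM at 0.155 CPM or below. The 5 haematopoietic markers summed to at most 0.771 CPM and the 3 hepatocyte markers to at most 0.149 CPM, with CYP7A1 at 0 in every library.

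Cells build cholesterol from acetyl-CoA through mevalonate, farnesyl units, squalene and lanosterol. When sterols in the endoplasmic reticulum run low, SCAP escorts the SREBP transcription factors, the products of SREBF1 and SREBF2, to the Golgi for cleavage, and the freed factors raise transcription of the synthesis and uptake genes. INSIG proteins hold SCAP back when sterols are plentiful, and oxysterols act through LXR receptors on export genes such as ABCA1. Type I interferon is known to alter sterol metabolism in macrophages, through the oxysterol enzyme CH25H among others.

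SREBPs bind promoters beside NF-Y, a factor that recognises CCAAT boxes. RefSeq promoter sequences on GRCh38.p14, 300 bases from 250 before to 50 after the start, were at hand for 26 of the 30 genes. The letters CCAAT, read on both strands, occurred in promoters of 19 of the 26 (73.1%), including 13 of 15 synthesis enzymes, against 39.7% of all 27305 genes and 34.6% of all 35116 promoters. The sterol regulatory element core TCACNCCAC occurred in 1 gene of the 26, SREBF2, against 1.39% of genes and 1.13% of promoters. The LXR direct repeat (AGGTCA, 4 bases of any kind, AGGTCA) was present in 0.0256% of genes and 0.0199% of promoters, and the interferon response core (GAAA, 2 bases of any kind, GAAA), added after the results were seen, in 4.38% of genes and 3.57% of promoters. Neither was in any of the 26. These are matches of letters in a short window and not binding sites. Shown 5′ to 3′ on the gene's strand, with matches in capitals, are STARD4, the gene that rose with IFNB, from chr5:111512605-111512725 (minus strand, 190 to 70 bases before the start), SREBF2 from chr22:41832915-41833104 (plus strand, 190 to 1 bases before the start) and HMGCS1, the highest of the set per kilobase, from chr5:43313462-43313582 (minus strand, 170 to 50 bases before the start):
STARD4: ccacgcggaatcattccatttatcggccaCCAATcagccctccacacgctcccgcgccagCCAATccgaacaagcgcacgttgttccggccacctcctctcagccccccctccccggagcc
SREBF2: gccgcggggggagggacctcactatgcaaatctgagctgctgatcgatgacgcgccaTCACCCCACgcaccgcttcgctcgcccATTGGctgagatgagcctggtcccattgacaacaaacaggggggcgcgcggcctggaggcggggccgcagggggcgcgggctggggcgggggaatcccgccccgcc
HMGCS1: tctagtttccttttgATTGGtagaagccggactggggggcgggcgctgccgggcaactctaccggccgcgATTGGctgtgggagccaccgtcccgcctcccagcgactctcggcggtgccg
CCAAT on the other strand reads ATTGG, and the CCAAT and sterol element matches in SREBF2 do not overlap. For each gene the promoter shown was that with the most CCAAT matches among those at hand, so it was chosen for them. There STARD4 has a pair of CCAAT boxes 161 and 130 bases before the start, and HMGCS1 a pair 155 and 100 before it. The sterol element of SREBF2 lies 133 bases before the start.

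The pathway was broadly expressed in these cells. Of the 30 genes, 14 had a mean of at least 100 CPM, 13 lay between 10 and 100 CPM, and 3 were under 10 CPM. Genes were set side by side per kilobase of merged exons, the union over all annotated transcripts of a gene. That union can be longer than the transcript in use, so the order of genes depends on it. On this scale HMGCS1 (the mevalonate-branch synthase) was highest at a mean of 91.6 CPM per kilobase over 12 libraries, with a range of 78.3 to 101. It was followed by FDPS (farnesyl diphosphate synthase) at 78.2, NPC1 (the lysosomal cholesterol exporter) at 75.4, CYP51A1 (the lanosterol demethylase) at 73.6 and DHCR7 (which makes cholesterol in the final step of one branch) at 71.4 CPM per kilobase. The ranges of these 5 genes overlapped. By CPM without regard to length NPC1 was the highest member, at a mean of 762 CPM, against 431 CPM in HMGCS1.

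At the low end were TM7SF2, a sterol reductase, at 0.992, ABCA1, the exporter that loads cholesterol onto apolipoprotein, at 1.45, and MYLIP, the ubiquitin ligase that removes lipoprotein receptors, at 2.70 CPM per kilobase. ABCG1, which exports cholesterol to lipoprotein particles, had 19 counts over all 12 libraries and at most 0.20 CPM in any of them. The limit that a count of 0 sets, 3 counts, corresponds to 0.104 to 0.242 CPM depending on the library and covers counting error only, so ABCG1 was at or near it.

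**Figure D1:**
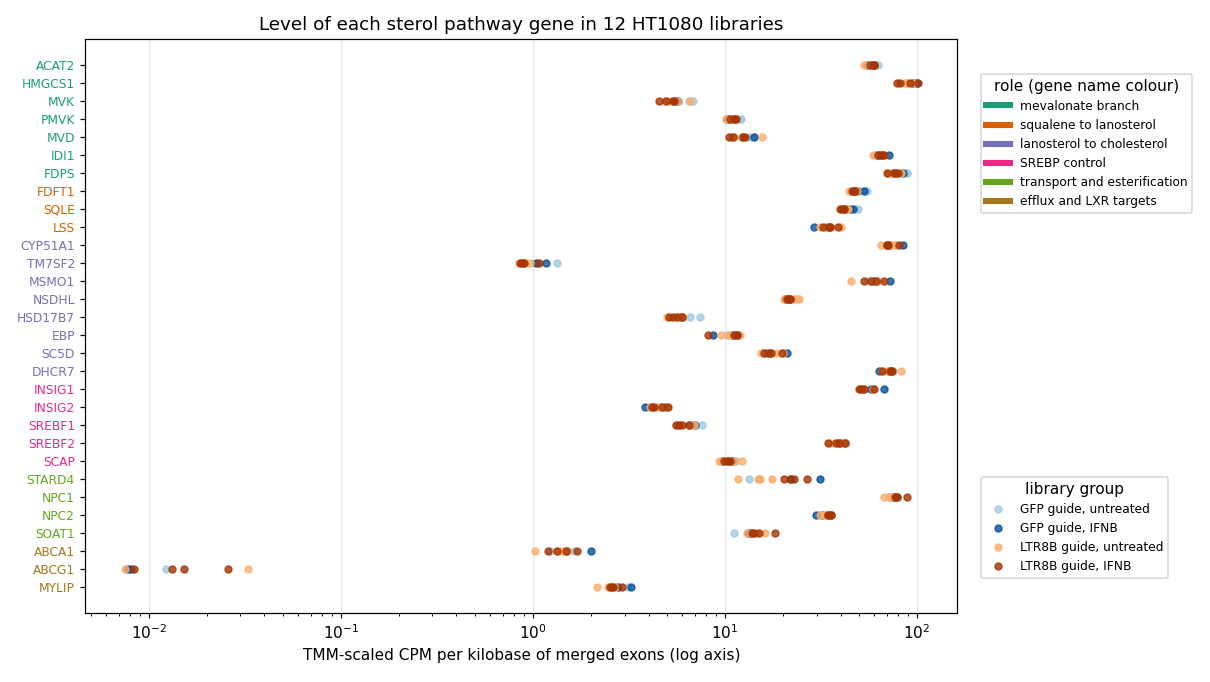
Level of each of the 30 genes in the 12 libraries, as TMM-scaled CPM per kilobase of merged exons on a log axis. Each point is 1 library, coloured by group, and gene names are coloured by role; points at 0 cannot be drawn. HMGCS1 sits highest, ABCG1 lowest, and the points of STARD4 are the most widely spread among the 29 tested genes.

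Levels were even across the 12 libraries. The highest library exceeded the lowest by 1.32-fold in the median gene and by 1.18-fold in ACAT2 (the acetoacetyl-CoA thiolase that starts the route), the smallest spread among the 29. STARD4, which encodes a soluble carrier of sterols between membranes, had the widest, at 2.65-fold.

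STARD4 rose with IFNB in both kinds of cell. STARD4 (ENSG00000164211.13) lies on hg38 chromosome 5 at 111496033 to 111512590, minus strand, where the antisense gene STARD4-AS1 overlaps it. In GFP cells its level was 75.9 and 85.7 CPM before treatment and 126 and 177 CPM after IFNB. The LTR8B libraries gave 84.9, 66.8, 100.1 and 86.5 CPM untreated, and 124, 115, 130 and 151 CPM after IFNB. Every treated library of a line lay above every untreated library of that line.

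Group means of STARD4 went from 80.8 ± 6.96 (SD, n = 2) to 152 ± 35.9 CPM (n = 2) in GFP cells, a 1.88-fold rise (log2 0.91, SE 0.19, edgeR quasi-likelihood adjusted p = 0.0216). In LTR8B cells they went from 84.6 ± 13.7 (SD, n = 4) to 130 ± 15.5 CPM (n = 4), a 1.53-fold rise (log2 0.61, SE 0.14, edgeR adjusted p = 0.0219). Averaged over both lines the rise was 1.70-fold (log2 0.76, SE 0.12, edgeR adjusted p = 0.00130). Among the 866 genes that rose in that average, STARD4 ranked 341 by size, and the median of those genes was 0.57 on the log2 scale.

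The rise in GFP cells exceeded that in LTR8B cells by 0.29 on the log2 scale (interaction -0.29, SE 0.23, edgeR adjusted p = 0.996). The ratio of the LTR8B rise to the GFP rise was 0.816, with 0.590 to 1.13 at 2 SE, so the data allow both equal rises and a clearly smaller one in LTR8B cells. Without IFNB the log2 difference of STARD4 between guides was 0.07 (SE 0.17, edgeR adjusted p = 0.907).

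The size of the rise in GFP cells rested in part on 1 library. Without GFP IFNB replicate 2, at 177 CPM, it was 0.64 on the log2 scale (edgeR adjusted p = 0.231), and it also missed the threshold without GFP untreated replicate 1 (adjusted p = 0.235) or 2 (adjusted p = 0.0874). In LTR8B cells the rise missed the threshold without untreated replicate 1 (edgeR adjusted p = 0.0637) or 4 (0.0533), or without IFNB replicate 3 (0.0581) or 4 (0.0689). The average over both lines kept its call without any 1 of the 12 libraries, with log2 values of 0.63 to 0.87.

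Libraries also differed in how their levels followed the GC content of transcripts, and this touches STARD4, whose transcript is the poorest in GC of the set at 34.2%. Only 1.03% of tested genes lay at or below that value, and the other members reached 64.2% in TM7SF2. The deviation of each gene from its mean over the 12 libraries was set against GC, over 10134 genes and over 28 members. The 28 leave out TM7SF2 and ABCG1 but include STARD4, whose deviations hold its own change with IFNB. Pearson's r over the members was 0.78 in LTR8B untreated replicate 2 and -0.78 in LTR8B IFNB replicate 4, and over all 10134 genes it was 0.47 and -0.41. In GFP cells r over the members was 0.61 and 0.46 in the 2 untreated libraries and 0.29 and -0.62 in the 2 treated ones. Genes of a library share its depth and preparation, so these r values describe libraries and are not tests.

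With the GC trend of each library removed, STARD4 rose by 0.69 in GFP cells (edgeR adjusted p = 3.87e-05) and by 0.62 in LTR8B cells (adjusted p = 1.46e-06) on the log2 scale, with an average of 0.66 (adjusted p = 7.76e-08). That correction was added after the data were seen. The rise in GFP cells was smaller with it than without it, and the rise in LTR8B cells was of like size.

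**Figure D2:**
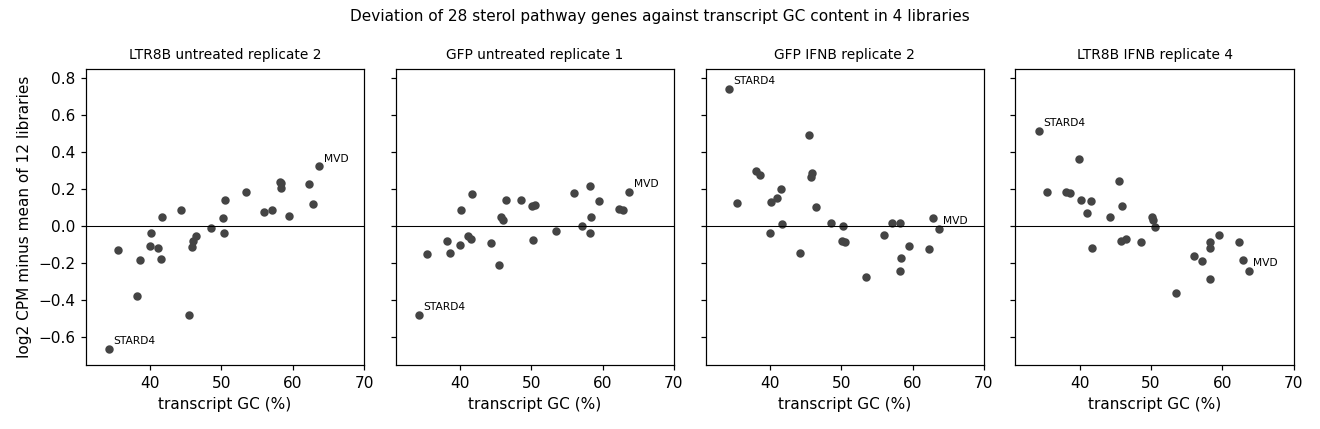
Deviation of 28 members (log2 CPM minus the mean over 12 libraries, which includes any effect of IFNB or guide) against transcript GC content in percent, in 4 libraries. Points rise with GC in LTR8B untreated replicate 2 and GFP untreated replicate 1 and fall with it in GFP IFNB replicate 2 and LTR8B IFNB replicate 4; STARD4, at 34.2% GC, is the leftmost point in each.

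Over the other members IFNB changed little. In GFP cells 1 of 29 members was called, STARD4, against 3.2% of all tested genes. In LTR8B cells it was again 1 of 29, against 4.5% of genes, and in the average 1 of 29, against 6.29%. The median log2 change of the 29 members in the average was -0.01, as it was over all tested genes, and 17 of the 29 had negative values (13 with the GC trend removed), against 54.3% of genes.

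NPC1, which moves cholesterol out of lysosomes, was the other transport gene with no overlap between treatments. GFP cells held 722 and 724 CPM before treatment against 766 and 761 CPM after IFNB. LTR8B cells held 681, 740.3, 737 and 747 CPM before it against 799, 799, 891 and 776 CPM after it. The treated libraries lay above the untreated ones in both lines, by a fold of 1.12 in LTR8B cells (log2 0.17, SE 0.05, edgeR adjusted p = 0.104) and 1.06 in GFP cells (edgeR adjusted p = 0.736), neither past the threshold. NPC1 in LTR8B cells passed it under DESeq2 (adjusted p = 0.0311) and with the GC trend removed (edgeR adjusted p = 0.0432). In the average over both lines, NPC1 was called when line and replicate number were taken as a block.

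Separation of the treatments in both lines, upward, was found in 2 of the 29 members, STARD4 and NPC1, against 5.14% of genes. Downward it was found in SQLE alone, against 1.48% of genes. NPC2, the soluble partner that hands cholesterol to NPC1, gave a log2 change of 0.02 in the average, and SOAT1, which esterifies cholesterol for storage, 0.12 (SE 0.07), neither past the threshold.

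None of the 18 synthesis enzymes was called for IFNB in either line or in the average, where 14 of the 18 had negative values, against 54.3% of genes, with a median of -0.06. HMGCS1 had a log2 change of -0.00 (SE 0.06) in the average, a fold of 0.999, and the largest values of the enzymes were -0.18 in MVK, mevalonate kinase, and 0.14 in MSMO1, the C4-methylsterol oxidase. No gene of the SREBP control group was called. SREBF2, the factor most tied to sterol synthesis, was at 309 ± 17.7 (SD, n = 2) CPM in untreated GFP cells and 306 ± 10.5 (n = 2) with IFNB, and at 292 ± 21.7 (n = 4) and 290.5 ± 24.5 CPM (n = 4) in LTR8B cells. INSIG1, an SREBP target as well as a brake on SREBP, had a log2 change of 0.05 (SE 0.06).

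Of the efflux genes, ABCA1 measured 13.98 and 18.5 CPM in untreated GFP cells against 17.1 and 22.8 CPM after IFNB, which overlapped. Among the LTR8B libraries it ranged from 11.6 to 17.1 CPM untreated and from 13.7 to 19.2 CPM with IFNB, which overlapped too. Its average log2 change was 0.21 (SE 0.12, edgeR adjusted p = 0.443), and that of MYLIP 0.07 (SE 0.09). With line and replicate number taken as a block, ABCA1 was called in the average.

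The interaction of guide and IFNB was called for 0 of 29 members, against 0% of tested genes. At an unadjusted p under 0.05 it was also 0 of 29, against 2.98% of genes, and DESeq2 and limma-voom called 0 members. The widest interaction values were -0.29 in STARD4, -0.28 in SC5D, a late sterol desaturase, and 0.25 in PMVK, phosphomevalonate kinase.

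**Figure D3:**
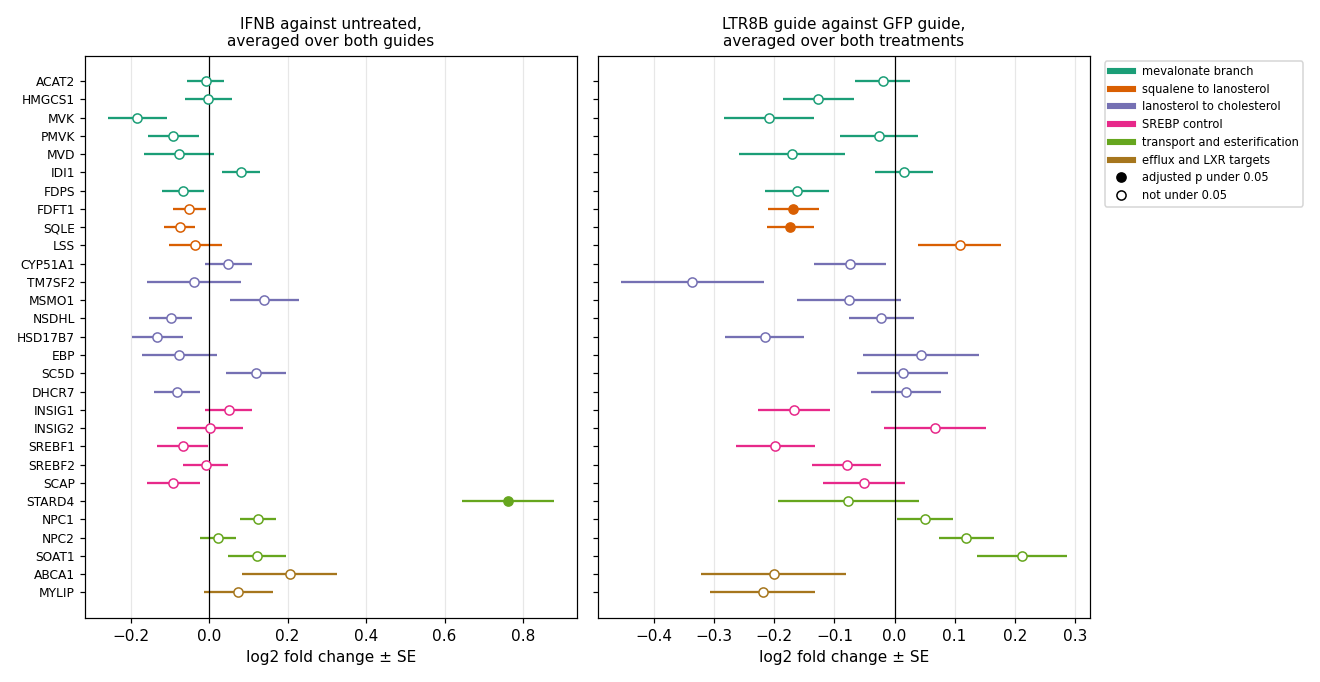
Log2 fold change with its SE for the 29 tested members, for IFNB against untreated cells averaged over both guides (left) and for the LTR8B guide against the GFP guide averaged over both treatments (right); filled points passed an adjusted p of 0.05. On the left STARD4 stands at 0.76 with the other points between -0.18 and 0.21, and on the right SQLE and FDFT1 are the filled points.

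The guide comparison asked whether cells with the LTR8B guide, which had little SP140, differed from GFP cells in the same genes. Averaged over both treatments, 2 of 29 members fell, SQLE and FDFT1, and 0 rose, against 2.14% of all tested genes called in either direction, 0.994% called lower and 1.15% called higher. They encode adjacent enzymes. FDFT1 joins farnesyl units into squalene, and SQLE, the squalene epoxidase, commits squalene to sterols. The change of each was about 0.17 on the log2 scale, and these were the 2 smallest changes among the 163 genes called lower.

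SQLE (chromosome 8, 124998497 to 125022283, plus strand) measured 206 and 213 CPM in untreated GFP cells, and 193 and 201 CPM in treated ones. The untreated LTR8B libraries gave 184, 181, 183 and 187 CPM, and the treated ones 176, 172, 179 and 179 CPM. All LTR8B libraries lay below all GFP libraries. Its fold was 0.887 (log2 -0.17, SE 0.04, edgeR adjusted p = 0.0263).

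FDFT1 (chromosome 8, 11795573 to 11839309, plus strand) measured 280.02 and 287 CPM in untreated GFP cells, and 275 and 256 CPM in treated ones. Its LTR8B libraries gave 244, 252, 229.8 and 254 CPM untreated, and 248, 243, 244 and 239 CPM treated. Here too every LTR8B library lay below every GFP library. Its fold was 0.890 (log2 -0.17, SE 0.04, edgeR adjusted p = 0.0479).

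The 2 calls lay close to the threshold. SQLE missed it in 9 of 20 alternatives and FDFT1 in 14 of 20, among them leaving out GFP untreated replicate 2 (edgeR adjusted p = 0.204 for SQLE and 0.289 for FDFT1), while the direction held in all 20. With the GC trend removed both were called (edgeR adjusted p = 0.00353 and 0.0110). Guide and cell line come together here, since each guide was in its own cells, so a difference between the lines and an effect of the guide cannot be told apart.

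**Figure D4:**
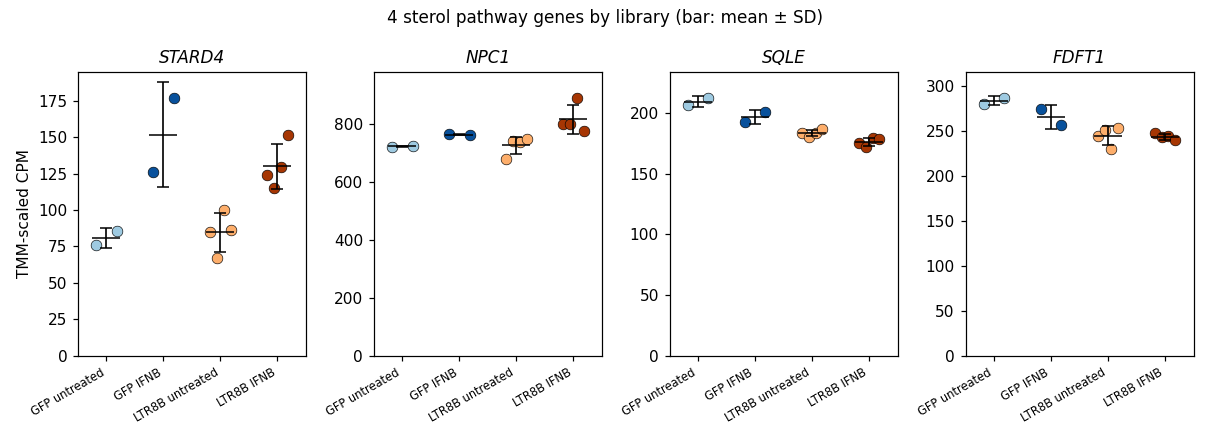
CPM of STARD4, NPC1, SQLE and FDFT1 in each library by group, with the group mean and SD as bars and the axis from 0. STARD4 is higher in treated than in untreated libraries in both lines, NPC1 rises from about 681 to 747 CPM untreated to 761 to 891 CPM treated, and SQLE and FDFT1 are lower in LTR8B than in GFP libraries.

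Within 1 treatment no member passed the threshold for the guide. In untreated cells edgeR called 0 of 29, against 0.36% of tested genes. An unadjusted p under 0.05 was found in 9 of 29, against 11.2% of all tested genes. DESeq2 called 2 members there, SQLE (adjusted p = 0.0177) and FDFT1 (adjusted p = 0.0262), and 177 genes in all. With IFNB edgeR called 0 of 29, against 0.354% of genes, with 3 of 29 at an unadjusted p under 0.05, against 9.48% of genes. DESeq2 called 0 members with IFNB, and 120 genes in all. The log2 difference of SQLE was -0.19 untreated and -0.16 with IFNB, and that of FDFT1 -0.21 and -0.13.

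Most members lay slightly lower in LTR8B cells without a call. In the average 20 of the 29 had negative values, against 49.6% of all tested genes, with a median of -0.08 against 0.00. At an unadjusted p under 0.05 there were 12 of the 29, of which 10 were lower, against 15.8% of genes in either direction and 7.72% lower. Separation of the guides in both treatments, downward, was found in SQLE and FDFT1 (2 of 29, against 2.53% of genes), and upward in 0 of 29, against 3.07%.

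Of the 7 mevalonate-branch genes 6 had negative values, from -0.21 in MVK to -0.02 in ACAT2, and IDI1, the isopentenyl diphosphate isomerase, had 0.02. FDPS had -0.16 (SE 0.05, edgeR adjusted p = 0.134). LSS, which closes the rings to make lanosterol and follows SQLE in the route, had 0.11 (SE 0.07, edgeR adjusted p = 0.471). Of the 8 later enzymes 5 had negative values, the lowest in TM7SF2 at -0.34 (SE 0.12, edgeR adjusted p = 0.166) and HSD17B7 at -0.22 (SE 0.07, edgeR adjusted p = 0.102). Over the 18 synthesis enzymes 13 had negative values and 5 positive ones, against 49.6% negative over all tested genes. At an unadjusted p under 0.05 there were 7 of the 18, all 7 lower, against 7.72% of genes lower. None besides SQLE and FDFT1 passed the test.

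In the SREBP control group 4 of 5 had negative values. SREBF1, whose product leans to fatty acid genes, had -0.20 (SE 0.07, edgeR adjusted p = 0.135), INSIG1 had -0.17 (SE 0.06, edgeR adjusted p = 0.169), and SREBF2 -0.08 (SE 0.06). INSIG2, on chromosome 2 as SP140 is, had 0.07 (SE 0.08). The transport group went the other way in 3 of 4, with SOAT1 at 0.21 (SE 0.07, edgeR adjusted p = 0.166), NPC2 at 0.12 and NPC1 at 0.05. ABCA1 and MYLIP had -0.20 and -0.22. None of these passed the threshold.

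Genes beside the pathway were read from 6 lists with 90 genes, of which 79 were tested. In the average response to IFNB, where 5.28% of all tested genes rose, 3 of the 22 tested genes for sterol transfer, lysosome and uptake did so. They were LIPA, SCARB2 and CAV1, and each rose in both lines. LIPA, the lysosomal acid lipase that frees cholesterol from its esters, went from 139 ± 7.98 (SD, n = 2) to 216 ± 10.2 CPM (n = 2) in GFP cells and from 143 ± 9.77 (n = 4) to 203 ± 8.6 CPM (n = 4) in LTR8B cells (average log2 0.57, SE 0.05, edgeR adjusted p = 2.98e-07). The annotated span of LIPA holds IFIT1, IFIT2 and IFIT3 on the opposite strand. Whether counting used strand is not stated in any source at hand. If it did not, reads of these genes cannot be told apart where their exons overlap. Whether any of their exons overlap was not examined, and the part of IFIT reads in LIPA was not tested.

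SCARB2, a lysosomal membrane protein, had an average log2 change of 0.47 (SE 0.05, edgeR adjusted p = 3.83e-06). CAV1, the cholesterol-binding coat protein of caveolae, had 0.28 (SE 0.04, edgeR adjusted p = 7.38e-05), from 227 ± 0.862 (SD, n = 2) to 283 ± 4.48 CPM (n = 2) in GFP cells. CH25H, the interferon-induced oxysterol enzyme of macrophages, did not exceed 0.0497 CPM in any library, treated ones included, and had 3 counts in all. CYP7A1 and SOAT2 had 0 counts. Of the LXR receptors and partners, RXRA fell by 0.21 in the average (SE 0.06, edgeR adjusted p = 0.0295), 1 of 10 tested against 1.01% of genes called lower, and with the GC trend removed by 0.14 (edgeR adjusted p = 0.0729). Its call was lost in 8 of 20 alternatives, 7 of them with a library left out.

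**Figure D5:**
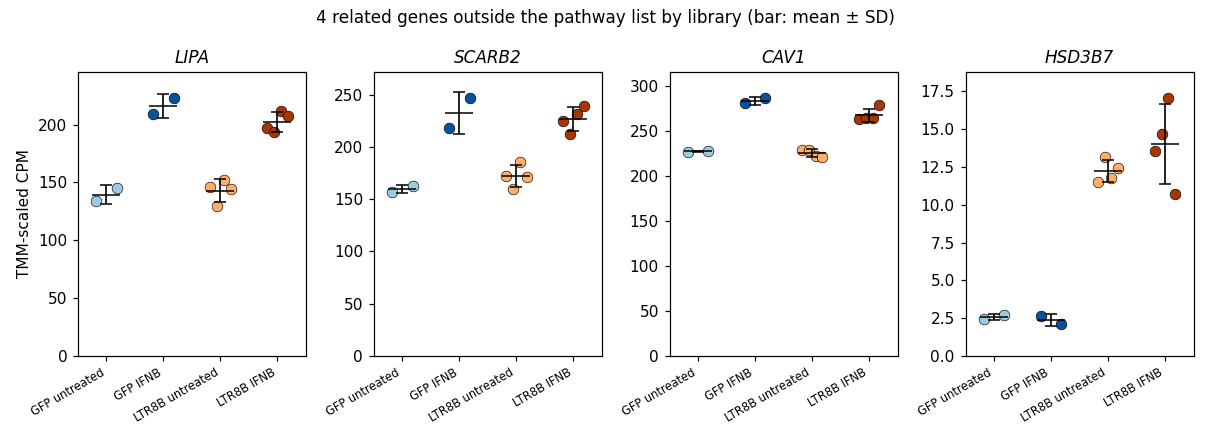
CPM of LIPA, SCARB2, CAV1 and HSD3B7 in each library by group, with the group mean and SD as bars and the axis from 0. LIPA, SCARB2 and CAV1 are higher in all treated than in all untreated libraries, and HSD3B7 is 2.09 to 2.73 CPM in GFP libraries and 10.7 to 17.1 CPM in LTR8B libraries.

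Between guides, HSD3B7, an enzyme of bile acid synthesis that acts on oxysterols, differed most among the listed genes. GFP cells held 2.42 and 2.73 CPM before treatment against 2.67 and 2.09 CPM after IFNB. LTR8B cells held 11.5, 13.2, 11.7 and 12.4 CPM before it against 13.6, 14.7, 17.1 and 10.7 CPM after it. The 2 lines did not overlap, and the average fold was 5.26 (log2 2.40, SE 0.13, edgeR adjusted p = 4.23e-09). HSD3B7 lies on chromosome 16, where the gene AC135048.4 overlaps it on the opposite strand. Of its list of 9 genes, 7 were not tested for low counts, so no oxysterol route can be read from it.

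The other listed genes called in the guide average changed by less. GRAMD1B, which moves cholesterol from the plasma membrane to the endoplasmic reticulum, fell by 0.31 (SE 0.06, edgeR adjusted p = 0.00621), 1 of 22 tested against 0.994% of all tested genes called lower. LPIN1, a phosphatidate phosphatase and SREBP target, fell by 0.18 (edgeR adjusted p = 0.0494), 1 of 16 tested fatty acid genes against the same 0.994%. NCOR1, a nuclear receptor corepressor, rose by 0.19 (edgeR adjusted p = 0.0241) and RXRB fell by 0.19 (edgeR adjusted p = 0.0459), 2 of 10 tested against 2.14% of genes called in either direction. The calls of LPIN1 and RXRB were each lost in 14 of 20 alternatives, that of NCOR1 in 6 and that of GRAMD1B in 1. None of the 13 genes for SREBP processing and sterol-regulated degradation and none of the 16 of the nonsterol branch was called in either average, with 1 of 13 and 1 of 16 at an unadjusted p under 0.05 for the guide (15.8% of all genes), and 2 of 13 and 1 of 16 for IFNB (16.6%).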

How the data were processed

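Polyadenylated RNA of 12 HT1080 libraries was analysed from gene-level read counts, whole numbers as deposited. Per the submitters' processing notes, Salmon 0.13.1, DESeq2 1.38.3 and hg38 were used by the authors, and no source used here states their order or the strand setting. A second deposited table, the authors' normalized signal, was the same counts scaled by a divisor for each library (0.600 to 1.46) and was used for that check only. Members were matched by symbol, and positions, merged exon lengths and GC content came from GENCODE release 29.

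Counts were fitted with edgeR 4.0.16 in R 4.3.3, by TMM scaling, filterByExpr (minimum count 10, minimum total 15) and 1 robust quasi-likelihood model over all 12 libraries with 1 mean per group. Benjamini-Hochberg adjustment ran over all 16393 tested genes at 0.05. The GC relation used genes with a mean log2 CPM of at least 3. Alternatives used DESeq2 1.42.0, limma-voom (limma 3.58.1), other scalings and filters, a replicate block, libraries left out, and removal of each library's GC trend, added after the data were seen. The procedure was tested on simulated counts with planted changes larger than those of SQLE and FDFT1, and without GC trends or pairing. That test therefore does not cover changes as small as theirs. Replicates were no duplicates (chi-square per degree of freedom 2.62 to 16.9). The labels name 2 kinds of index adapter without saying which library had which. All members are named, and of the other lists those past the threshold. The members and lists were chosen with earlier results of these data known.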

Additional observations from a re-analysis of the deposited data

Results flagged for a closer look

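In 5 of the 58 pairs of a member and an LTR8B group of 4 libraries, 1 library stood far from the other 3. Independent values would give about 1 in 20, but members share libraries, and the share over all genes was not computed. The 5 are therefore given as values and not read as an excess in the members. With IFNB, CYP51A1 was at 289.46 CPM in replicate 4 against 249.8 to 252 CPM in the others, and EBP, the sterol isomerase, was at 19.6118 CPM in the same library against 26.9 to 27.96 CPM. That library had the correlation of -0.78 with GC content over the members, and the transcripts hold 41.5% GC in CYP51A1 and 53.5% in EBP; the part of GC in these values was not tested. ACAT2 was at 244.008 CPM in IFNB replicate 3, the library with the lowest total count, against 256 to 258 CPM. Among untreated LTR8B libraries INSIG1 was at 214.854 CPM in replicate 4 against 187 to 192 CPM, and NPC1 was at 680.891 CPM in replicate 1 against 737 to 747 CPM. Groups of 2 libraries were not examined in this way.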

How the results depend on the processing

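Calls over all genes moved with the setting, in part as given below. The counts of members are therefore not read as particular to them. Members called moved as follows. The guide in untreated cells gave 2 with DESeq2 (0 otherwise reported). The guide average, 2 as reported, gave 1 with relative log expression scaling (SQLE), 1 without the low-count filter (SOAT1, higher), and 0 to 4 with 1 library left out, the 4 without LTR8B untreated replicate 2 (FDFT1, FDPS, MVK and SQLE). The IFNB response in GFP cells gave 0 to 1 and that in LTR8B cells 0 to 1 with 1 library left out. In LTR8B cells it gave 2 with DESeq2 and 2 with the GC trend removed, NPC1 joining STARD4, and the IFNB average gave 2 with the GC trend removed. Called members and called genes of the other lists gave 450 values together under the alternatives. Of these, 373 kept their call, 77 lost it (63 of them with a library left out) and 0 turned direction. This total does not describe the members alone. STARD4 lost its call in 3 of 21 alternatives in GFP cells, 4 of 21 in LTR8B cells and 0 of 20 in the average. SQLE lost its guide call in 9 of 20 and FDFT1 in 14 of 20.

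Libraries with the same replicate number correlated in their deviations at 0.0375 to 0.164 within LTR8B cells and 0.0969 within GFP cells, and at -0.179 to -0.0259 across lines, and 6 of 8 LTR8B libraries were closest to their own number. The numbers were to be taken as pairs only if every pair exceeded 0.1, which LTR8B replicate 3 and the GFP pairs did not. The block therefore served only as an alternative to the main fit. All same-number correlations within a line were positive, so the main fit may leave out a pairing within lines. Whether libraries with the same number shared an origin was not tested. The block took line and number together for the IFNB responses and the interaction. For the guide it took the number as shared across lines, although same-number correlations across lines were negative, so it followed no pairing seen in the data. With that shared number the guide average gave 0 members, and all genes called went from 351 to 181. With line and number together, the IFNB response in LTR8B cells gave 2 members and the IFNB average 3 (ABCA1, NPC1 and STARD4). All genes called in the IFNB average went from 1031 to 1598.

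Over all genes, the guide gave 59 untreated, but 177 with DESeq2, 119 with the GC trend removed, 325 unfiltered and 22 to 94 with a library left out. With IFNB it gave 58, but 120, 96, 260 and 21 to 69, and in the average 351, but 590, 696, 775 and 93 to 461. The IFNB response in GFP cells gave 524, and 344 to 594 with a library left out. The interaction gave 0, but 13 unfiltered, 4 with the block and 0 to 1 with a library left out. Without composition scaling 742 of 1223 calls in the IFNB average were higher, against 866 of 1031, and 561 of 739 in LTR8B cells, against 658 of 737. The causes were not tested. Groups of 2 libraries limit the precision, and a lone GFP library left in a group was assumed to vary like the others.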
